A study of Mus musculus with 3 samples.

Results

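The aryl hydrocarbon receptor pathway was examined through 4 genes, Ahr, Arnt, Cyp1a1 and Cyp1b1, chosen by gene symbol from the platform annotation of the arrays. They are 4 of 8251 genes and are read by 7 of 12422 probe sets other than controls, 1 for Ahr and 2 for each of the other genes. RNA came from the medial edge epithelium of the secondary palate, the cell layer at the tips of the palatal shelves, in mouse embryos of the CF-1 stock, taken at embryonic day 13.5. The groups were unfused epithelium without culture (0 h), fused epithelium after 12 h of culture from first contact of the shelves (12 h), and fused epithelium at 24 h of such culture, labelled as transforming from epithelium to mesenchyme (24 h). All samples were freed with the enzyme Dispase II, amplified and hybridized to Affymetrix arrays of 1 colour. Each time point had 1 array, so no value below has a replicate, an error between samples or a p-value. Fusion and time in culture cannot be told apart. The sources used here do not give the number of embryos behind each sample.

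Ahr encodes a transcription factor of the basic helix-loop-helix PAS family that waits in the cytosol, bound to the chaperone Hsp90, until it binds a ligand such as the dioxin TCDD or a plant or tryptophan-derived indole. It then enters the nucleus, pairs with the related protein Arnt and binds DNA at xenobiotic response elements, sites that contain the core GCGTG. Cyp1a1 and Cyp1b1, cytochrome P450 monooxygenases that oxidize aromatic hydrocarbons and steroids, are among its best known targets. Arnt is also the partner of the hypoxia-inducible factors, so that both pathways share it. In mice, TCDD given during palate development causes cleft palate through Ahr, and the medial edge epithelium is among the tissues it acts on.

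The sequence before the start of Cyp1b1, of Cyp1a1 and of Ahrr, a repressor of the receptor that is itself a target, is shown because it holds matches to the core GCGTG. The bases beside the core were not considered, and binding of Ahr and Arnt at these matches was not tested. Each line is the 250 bases before the annotated start, read 5′ to 3′ on the gene's strand, with matches to GCGTG or to its reverse complement CACGC in capitals. Sequences are from RefSeq, mouse build GRCm38.p6. Cyp1b1 lies on the minus strand (chr17:79715062-79715311), Cyp1a1 on the plus strand (chr9:57697363-57697612) and Ahrr on the minus strand (chr13:74292332-74292581).
Cyp1b1: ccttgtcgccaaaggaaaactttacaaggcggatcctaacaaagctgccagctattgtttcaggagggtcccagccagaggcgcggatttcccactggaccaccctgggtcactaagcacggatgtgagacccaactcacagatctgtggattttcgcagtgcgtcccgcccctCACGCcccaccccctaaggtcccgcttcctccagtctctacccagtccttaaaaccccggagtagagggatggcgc
Cyp1a1: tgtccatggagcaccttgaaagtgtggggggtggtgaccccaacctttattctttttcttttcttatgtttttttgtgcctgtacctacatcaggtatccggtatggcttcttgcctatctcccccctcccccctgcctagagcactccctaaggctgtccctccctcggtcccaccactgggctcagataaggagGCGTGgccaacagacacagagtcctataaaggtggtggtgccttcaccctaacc
Ahrr: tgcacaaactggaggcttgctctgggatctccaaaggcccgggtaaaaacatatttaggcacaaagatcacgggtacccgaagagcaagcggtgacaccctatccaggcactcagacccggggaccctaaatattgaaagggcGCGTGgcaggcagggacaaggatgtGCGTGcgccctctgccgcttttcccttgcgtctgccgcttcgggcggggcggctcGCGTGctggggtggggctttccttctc
Cyp1b1 held 1 core, on the strand opposite to the gene and beginning 76 bases before the start, and Cyp1a1 held 1, on the gene's own strand and 54 bases before it. Ahrr held 3, the farthest 107 and the nearest 27 bases before the start. The Arnt window also held 1, at 29 bases, and Tiparp, another target of the receptor, 1 at 170 bases. None was found in the windows of Nqo1 and Cyp1a2. The core was present in 28.2% of 32851 promoters of the same length, searched on both strands, so its presence is common and is given as a description of these windows. ACGTG, the other core read by Arnt with the hypoxia-inducible factors, was present in 16.6% of promoters and was not found in the windows of Arnt, Cyp1a1 or Cyp1b1. The promoter table matched 3 of the 4 members, without Ahr.

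Signals below are the deposited intensities after scaling of all arrays to a common 2% trimmed mean, which multiplied the 0 h array by 0.676, the 12 h array by 1.09 and the 24 h array by 1.36. A scaled signal of 13.5, the pooled 40th percentile, served as a floor. Where 1 of the arrays compared lies at or under it, the fold is a bound against the floor, written as at least N-fold, and where both do, no ratio is given. A difference is counted when it is at least 2-fold. Counts and median ratios, of lists and over all genes, take in bounds at their floored value, so they depend in part on the floor. Levels of different probe sets are not compared with each other, because probe sets differ in how brightly they bind.

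Several features of the arrays accompany these signals, and their part in the results was not tested. The ratio of 3′ to 5′ control signal was 0.828, 14.9 and 12.6 for Gapdh and 1.02, 11.9 and 2.97 for Actb at 0, 12 and 24 h. Of 15 epithelial markers, 12, 9 and 11 were above the floor at 0, 12 and 24 h, with summed signals of 1264, 2340 and 2154. Among them, the basal keratins Krt5, Krt14 and Krt15 were at the floor on every array, whereas Krt8, Krt17, Krt18, Krt19, Cdh1, Epcam and Trp63 were above it on all 3. Mesenchyme markers were above it for 15, 12 and 13 of 15 genes, with sums of 5881, 11067 and 11295, and endothelial markers for 9 of 11 at each time, with sums of 460.0, 683 and 711. A few bright genes carry these sums, Dsp and Perp among the epithelial and Col1a2 and Postn among the mesenchyme markers, whereas the median log2 ratio of 12 h to 0 h was -0.46 for the epithelial and -0.08 for the mesenchyme list, beside -0.21 over all genes. Of 12 epithelial markers with a ratio for 12 h against 0 h, 4 were at least 2-fold higher and 3 lower, beside 17.7% and 27.3% of all genes. Epcam was 6.85-fold, Dsp 4.73-fold, Perp 4.05-fold and Trp63 3.03-fold higher at 12 h relative to 0 h. Sfn was at least 9.71-fold, Jup at least 4.26-fold and Krt17 3.12-fold lower. In the same comparison, 7 of 15 mesenchyme markers were at least 2-fold higher and 5 lower. Their largest log2 ratios were -5.24 for Mfap2, -4.32 for Prrx2, -3.59 for Twist2 and 2.56 for Col1a2. The mesenchyme sum and median therefore do not show these large falls. For 24 h against 12 h the medians of the epithelial and mesenchyme lists were 1.36 and 0.73, beside 0.17 over all genes. The epithelial list was split, with 6 of 11 at least 2-fold higher and 3 lower, beside 18.8% and 12.0% of all genes. Krt8, Krt17, Krt18, Krt19, Jup and Cldn7 were higher, whereas Epcam was 3.43-fold, Trp63 3.41-fold and Perp 2.15-fold lower. Of 13 mesenchyme markers with a ratio, 5 were higher and 1 lower. Leukocyte markers summed to 355, 391 and 708, with 7, 8 and 9 of 14 above the floor and Ptprc, the pan-leukocyte phosphatase, at the floor on all 3 arrays, and erythroid markers to 7729, 1723 and 1695, with 7, 6 and 7 of 8 above it. The RNA thus also carried transcripts that mark other cells of the palate, and in such bulk samples fewer cells of a type and less RNA per cell cannot be told apart.

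**Figure D1:**
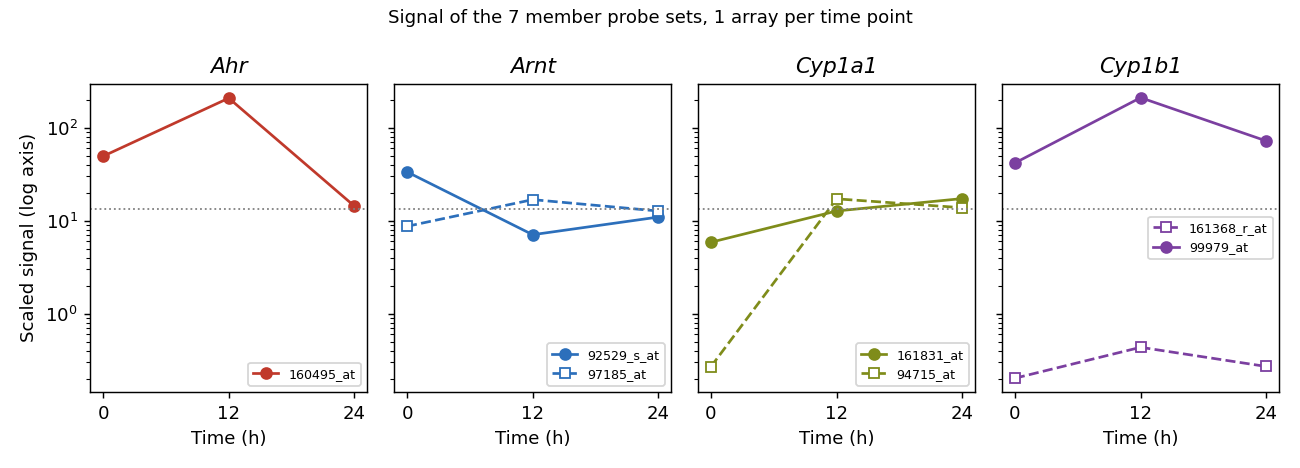
Scaled signal (log axis) of each of the 7 probe sets against time in hours, 1 panel per gene and 1 array per point. Filled circles with solid lines are the brightest probe set of a gene, open squares with dashed lines its other one, and the dotted line is the floor at 13.5. Ahr and the brighter set of Cyp1b1 are highest at 12 h, while Arnt and Cyp1a1 lie close to the floor or under it on most arrays.

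Ahr, the receptor, had scaled signals of 49.5 (0 h), 209 (12 h) and 14.4 (24 h), from deposited intensities of 73.2, 191.4 and 10.6. Its signal was thus highest in the fused epithelium at 12 h and, at 24 h, only just above the floor. It was 4.22-fold higher at 12 h relative to 0 h (log2 ratio 2.08), 14.5-fold lower at 24 h relative to 12 h (log2 ratio -3.86) and 3.44-fold lower at 24 h relative to 0 h (log2 ratio -1.78). The ratio of 24 h to 12 h was the second lowest, rank 2 of the 5006 genes measured on both arrays. Genes whose ratio is a bound, 1135 in this comparison, were not ranked, and Ahr entered the ranking by only just clearing the floor at 24 h. Its log2 ratio of 24 h to 12 h was itself a bound with the values as deposited (-3.85) and with a floor at the 60th percentile (-2.57). Between 12 h and 0 h, Ahr had rank 302 from the highest of 4904 genes, and between 24 h and 0 h rank 271 from the lowest of 5228. With a floor at the 60th percentile in place of the 40th, the log2 ratio of 24 h to 0 h was a bound of -0.49, short of 2-fold. The annotation used assigns no other probe set to Ahr alone, so a second reading of the gene was not analysed here.

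Arnt, the partner that Ahr needs to bind DNA, was read by 2 probe sets that disagreed. The brighter, whose name carries a suffix that marks possible binding of related transcripts, had signals of 33.6 (0 h), 7.09 (12 h) and 11.0 (24 h). It was above the floor at 0 h alone, and therefore at least 2.48-fold lower at 12 h and also at least 2.48-fold lower at 24 h relative to 0 h. The other had 8.72 (0 h), 16.9 (12 h) and 12.7 (24 h) and was above the floor at 12 h alone. By it Arnt was at least 1.25-fold higher at 12 h relative to 0 h and at least 1.25-fold lower at 24 h relative to 12 h, short of 2-fold both times. The direction of Arnt between 12 h and 0 h thus depends on which probe set is read. Between 24 h and 12 h the brighter set gave no ratio, as both arrays were under the floor.

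Cyp1b1, a cytochrome P450 made in many tissues outside the liver, had scaled signals of 41.9 (0 h), 211 (12 h) and 72.3 (24 h) by its brighter probe set. All 3 arrays were above the floor, with the fused epithelium at 12 h the highest and the unfused epithelium the lowest. Cyp1b1 was 5.04-fold higher at 12 h relative to 0 h (log2 ratio 2.33) and 2.92-fold lower at 24 h relative to 12 h (log2 ratio -1.55). Between 24 h and 0 h its log2 ratio was 0.79, short of 2-fold, and -0.22 with the values as deposited. Its ranks were 208 from the highest of 4904 genes for 12 h against 0 h, 262 from the lowest of 5006 for 24 h against 12 h and 1007 from the highest of 5228 for 24 h against 0 h. Its other probe set gave signals of 0.203, 0.436 and 0.271 at 0, 12 and 24 h, all far under the floor, and no ratio. When both sets were averaged, the ratio of 24 h to 12 h was -0.77 on the log2 scale, short of 2-fold.

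Cyp1a1, the most strongly dioxin-inducible of these enzymes, was close to or under the floor throughout. Its brighter probe set had 5.88 (0 h), 12.8 (12 h) and 17.4 (24 h) and was above the floor at 24 h alone. The other set had 0.270 (0 h), 17.2 (12 h) and 13.8 (24 h). Neither set exceeded the floor in the unfused epithelium. By the brighter set Cyp1a1 was at least 1.28-fold higher at 24 h relative to both 12 h and 0 h. By the other set it was at least 1.27-fold higher at 12 h relative to 0 h, 1.25-fold lower at 24 h relative to 12 h (log2 ratio -0.32) and at least 1.02-fold higher at 24 h relative to 0 h. No Cyp1a1 ratio reached 2-fold at this floor, although with a floor at the 20th percentile the log2 ratios of 12 h and of 24 h to 0 h by the brighter set were 1.12 and 1.56. The sets pointed in opposite directions between 24 h and 12 h.

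Counted over the members, 2 of the 3 with a ratio were at least 2-fold higher at 12 h relative to 0 h (Ahr and Cyp1b1) and 1 at least 2-fold lower (Arnt, by its brighter set). Over all genes, 17.7% of 6379 were at least 2-fold higher in that comparison and 27.3% were lower by that much. For 24 h against 12 h, 2 of 3 were at least 2-fold lower (Ahr and Cyp1b1) and 0 higher, against 12.0% lower and 18.8% higher of 6141 genes. At 24 h against 0 h, 2 of 4 were at least 2-fold lower (Ahr and Arnt) and 0 higher, against 17.7% lower and 14.5% higher of 6392 genes. Across all genes with a ratio, the median was -0.21 at 12 h against 0 h, 0.17 at 24 h against 12 h and -0.08 at 24 h against 0 h on the log2 scale, and every ratio stands beside that shift. The first and the second comparison share the 12 h array, so a deviation of that array would move a gene's ratios in them in opposite directions.

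**Figure D2:**
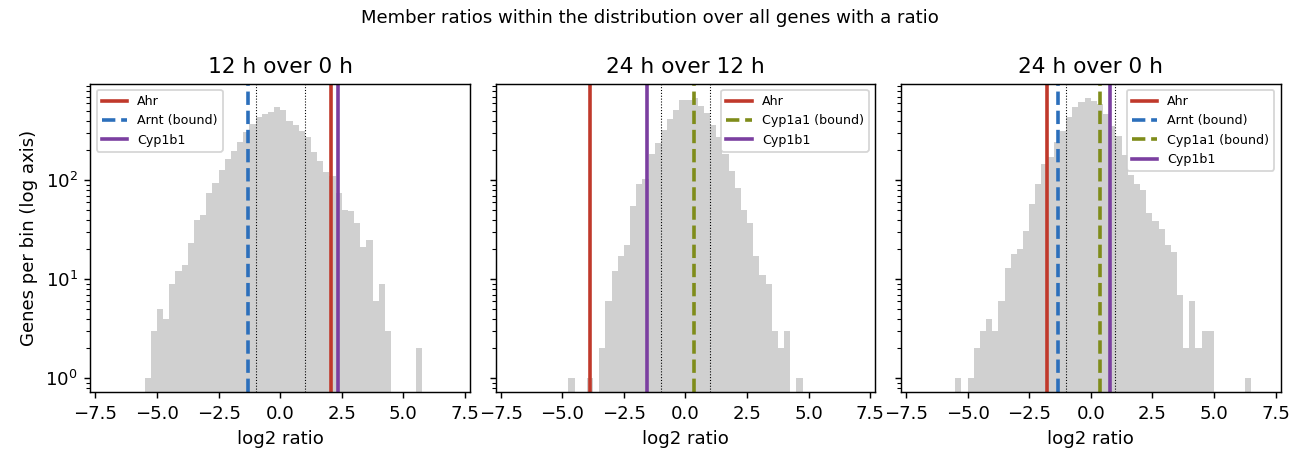
Number of genes per bin of log2 ratio (grey, log axis) in each comparison, with the members as coloured lines, dashed where the ratio is a bound, and dotted lines at 2-fold. Ahr stands at -3.86 in 24 h against 12 h, in the far lower tail, and Ahr and Cyp1b1 stand at 2.08 and 2.33 in 12 h against 0 h.

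How far log2 ratios differ between probe sets was described from genes read by several sets. Between sets of the same gene, the ratio of 12 h to 0 h scattered with an SD of 1.24 (672 genes), that of 24 h to 12 h with 0.82 (687 genes) and that of 24 h to 0 h with 1.07 (748 genes). The ratios of Ahr and Cyp1b1 exceed this SD for 12 h against 0 h and for 24 h against 12 h, and that of Ahr also for 24 h against 0 h. Cyp1b1 lies within the SD for 24 h against 0 h, as does the -0.32 of the dimmer Cyp1a1 set for 24 h against 12 h. The other Cyp1a1 values are bounds and cannot be placed against it. This SD describes the disagreement between probe sets and does not replace replicate arrays. Scatter alone takes some ratios past 1 SD, so exceeding it is a weak criterion.

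Of the proteins that hold the receptor in the cytosol, Hsp90aa1, a form of the chaperone Hsp90, and Src, a tyrosine kinase found in the complex, were measured. Hsp90aa1 had signals of 1291 (0 h), 2327 (12 h) and 1459 (24 h). It was 1.80-fold higher at 12 h relative to 0 h and 1.60-fold lower at 24 h relative to 12 h, both short of 2-fold. Src was above the floor at 0 h alone, with a signal of 29.8, and at least 2.20-fold lower at 12 h and at 24 h relative to 0 h.

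Among 18 genes of the receptor's target battery, Cyp1a1 and Cyp1b1 included, 11 had a ratio for 12 h against 0 h, and 4 were at least 2-fold higher and 0 lower, beside 17.7% and 27.3% of all genes, with a median log2 ratio of 0.73. Besides Cyp1b1 these were Nfe2l2, the oxidative stress regulator Nrf2 (2.86-fold higher), Serpinb2, a plasminogen activator inhibitor (at least 2.57-fold higher), and Scin, the actin-severing protein scinderin (2.40-fold higher). At 24 h, relative to 12 h, 0 of 13 were at least 2-fold higher and 1 lower, which was Cyp1b1, beside 18.8% and 12.0% of all genes, with a median of 0.05. With 24 h set against 0 h, 2 of 11 were higher and 0 lower, beside 14.5% and 17.7% of all genes, with a median of 0.57. These were Scin, 4.26-fold higher, and Serpinb2, at least 2.01-fold higher. The other Scin probe set was under the floor on every array.

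For Tiparp, Ahrr, Nqo1 and Cyp1a2, targets described here because of their role beside the members, no ratio or bound reached 2-fold. Tiparp, an ADP-ribose transferase that restrains the receptor, had signals of 27.3 (0 h), 45.7 (12 h) and 32.7 (24 h), with log2 ratios of 0.74 for 12 h against 0 h and -0.48 for 24 h against 12 h. Ahrr, the repressor that competes for Arnt, had 7.71 (0 h), 19.2 (12 h) and 24.7 (24 h). It was above the floor in the fused samples only and at least 1.42-fold higher at 12 h relative to 0 h. Nqo1, a quinone reductase, was above the floor at 12 h alone, at 17.0, and Cyp1a2, the liver enzyme of the family, on no array.

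Of 19 measured genes of the bHLH-PAS and PAS family, 4 of 14 with a ratio were at least 2-fold higher and 4 lower at 12 h relative to 0 h, beside 17.7% and 27.3% of all genes, with a median log2 ratio of -0.45. Hif1a, the oxygen-regulated partner of Arnt, had signals of 752 (0 h), 2442 (12 h) and 1384 (24 h). It was 3.25-fold higher at 12 h relative to 0 h, and 1.76-fold lower at 24 h relative to 12 h, and its other probe set gave log2 ratios of 1.56 and -0.81 for the same comparisons. Both of its sets carry a suffix that marks possible cross-hybridization. The others at least 2-fold higher at 12 h relative to 0 h were Ahr and the clock genes Clock (2.10-fold) and Per3 (2.37-fold). Arnt, Hif3a, a further hypoxia-inducible factor, Per1, a clock gene, and the coactivator Ncoa3 were at least 2.48-fold, 2.15-fold, 3.79-fold and 2.14-fold lower. At 24 h against 12 h, 1 of 11 was higher (Per1, at least 4.15-fold) and 1 lower (Ahr), beside 18.8% and 12.0% of all genes, with a median of -0.14. At 24 h, relative to 0 h, 1 of 15 was higher, Per3, and 4 lower, Ahr, Arnt, Hif3a and Ncoa3, beside 14.5% and 17.7% of all genes, with a median of -0.06. Arnt2, a close relative of Arnt, was above the floor at 24 h alone, with a signal of 14.1.

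Genes that Arnt controls together with the hypoxia-inducible factors were described by a list of 20 measured genes, 19 of them with a ratio. At 12 h against 0 h, 6 were at least 2-fold higher and 3 lower, beside 17.7% and 27.3% of all genes, with a median log2 ratio of -0.05. The glycolytic enzyme Pgk1 was 7.55-fold higher at 12 h relative to 0 h, and Pdk1, which restrains pyruvate oxidation, 4.06-fold higher. The lower ones were 3 further genes of sugar use, the hexokinase Hk1 (6.27-fold), the glycolytic enzyme Tpi1 (4.39-fold) and the glucose transporter Slc2a3 (2.99-fold). In the ratio of 24 h to 12 h, 7 were higher and 2 lower, beside 18.8% and 12.0% of all genes, with a median of 0.81. P4ha2 and P4ha1, which hydroxylate proline in collagen, were 5.80-fold and 3.41-fold higher at 24 h relative to 12 h, and Tpi1 was 4.35-fold higher. Lower in that comparison were Bnip3, a mitophagy receptor (2.81-fold), and Pdk1 (2.14-fold). With 24 h set against 0 h, 7 were higher and 1 lower, beside 14.5% and 17.7% of all genes, with a median of 0.78. Ddit4, an inhibitor of mTOR signalling, had signals of 162 (0 h), 609 (12 h) and 2892 (24 h), and was highest in the transforming epithelium. Ndrg1, a stress-induced gene, was 10.6-fold and Pgk1 6.36-fold higher at 24 h relative to 0 h, and the lower gene was Hk1, by 7.54-fold. The list thus held large ratios in both directions at 12 h against 0 h.

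Epidermal and transforming growth factor genes, whose expression in palatal epithelium is known to be altered by TCDD, had 5 of 11 measured members with a ratio at 12 h against 0 h, 2 higher and 2 lower, beside 17.7% and 27.3% of all genes, with a median log2 ratio of -0.32. Tgfb2 was 5.92-fold higher at 12 h relative to 0 h, with signals of 21.4, 127 and 57.5 at 0, 12 and 24 h. Tgfb3, which palatal fusion needs, was 2.11-fold higher by its brighter probe set, and its other set was under the floor on every array. The receptor Egfr was at least 2.53-fold lower by its brightest probe set, whose name carries a suffix. Its other sets were under the floor at 0 h and at 12 h and gave no ratio. The Egfr ligand Hbegf was at least 3.14-fold lower. At 24 h, relative to 12 h, 1 of 4 was higher, Hbegf (at least 2.69-fold), and 1 lower, Tgfb2 (2.21-fold), beside 18.8% and 12.0% of all genes, with a median of 0.63. For 24 h against 0 h, 2 of 5 were higher, Tgfb2 (2.68-fold) and Tgfb3 (2.67-fold), and 0 lower, beside 14.5% and 17.7% of all genes, with a median of -0.23. The ligands Egf, Tgfa, Ereg and Btc were at the floor on all 3 arrays.

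**Figure D3:**
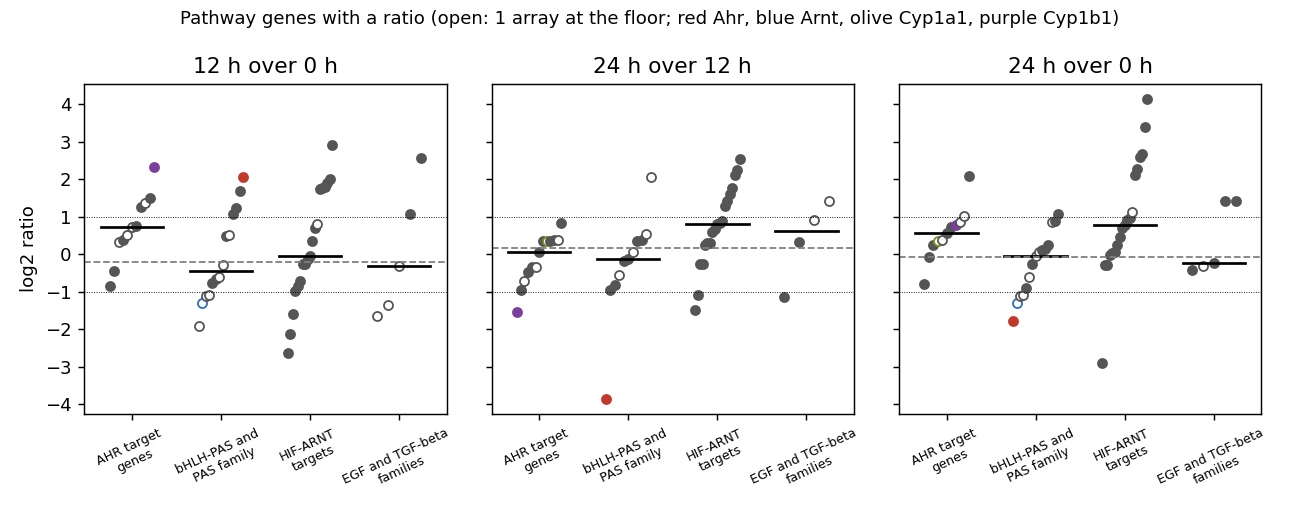
Log2 ratio of each gene with a ratio in 4 lists, in the 3 comparisons. Open circles have 1 array at the floor, coloured circles are members, black bars are list medians, the dashed line is the median over all genes and the dotted lines mark 2-fold. Ahr is the lowest point of its family at 24 h against 12 h, and Ddit4 is the highest of the HIF-ARNT targets at 24 h against 0 h, at 4.16.

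The genes whose profile over the 3 arrays was most like that of a member were found by the root mean square distance between log2 profiles, each set to a mean of 0. The 4681 other genes above the floor on all arrays were searched for Ahr and for Cyp1b1. Those nearest to Ahr were Sarnp, Map11, Has2, Dtd2 and Emc6, at distances of 0.387 to 0.428. Has2, a hyaluronan synthase, had signals of 36.1 (0 h), 157 (12 h) and 19.1 (24 h). Those nearest to Cyp1b1 were Pbrm1, Ttc33, Sos2, Ktn1 and Rnft1, at distances of 0.030 to 0.047. Pbrm1, a subunit of a chromatin remodelling complex, had 39.4, 190 and 67.5. Among the genes searched, none came as close to Ahr as these came to Cyp1b1. Ahr only just cleared the floor at 24 h, and genes under the floor on any array were not searched. How far this filter removed genes like Ahr was not tested. Arnt and Cyp1a1 lay under the floor on 2 of 3 arrays, so their floored profiles carry little shape. Commd2, Asf1b and Bud31 were nearest to Arnt, and Mapkbp1, Ank and Sbds to Cyp1a1.

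**Figure D4:**
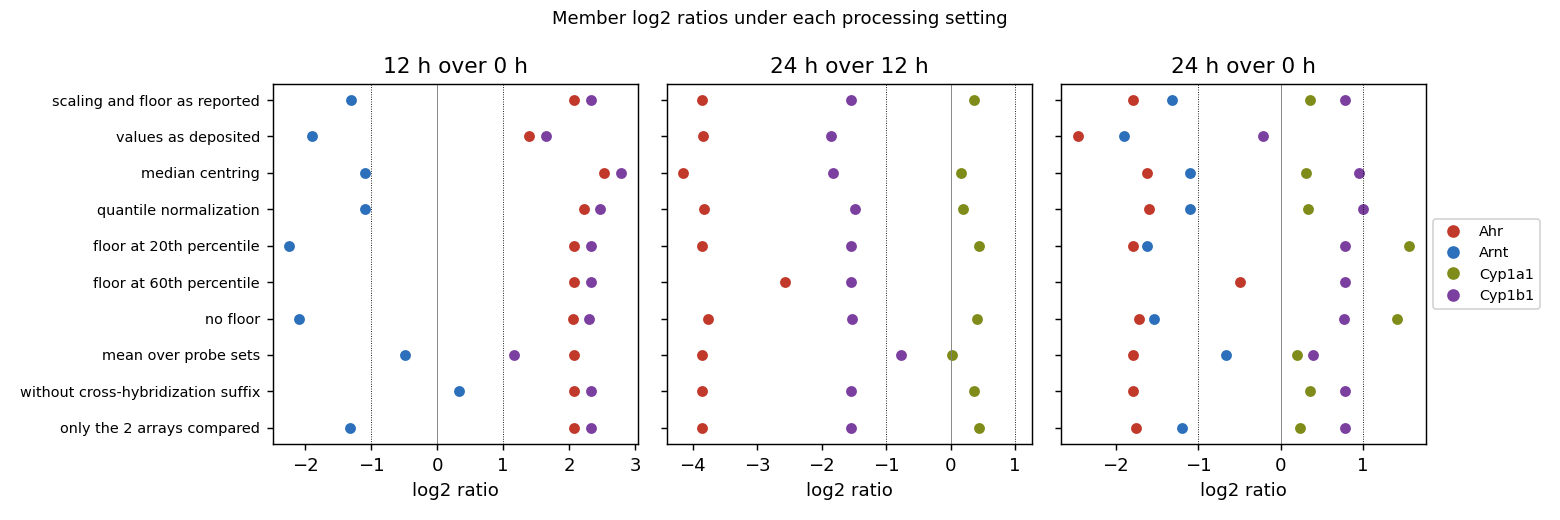
Log2 ratio of each member (coloured points) under the processing reported and under 9 alternatives (rows), in the 3 comparisons, with dotted lines at 2-fold. Bounds and measured ratios are drawn alike. The points of Ahr lie between 1.39 and 2.53 for 12 h against 0 h. For 24 h against 12 h they lie between -4.14 and -2.57, of which -2.57 is a bound. Arnt reaches a bound of 0.32 for 12 h against 0 h when probe sets with a suffix are left out.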

How the data were processed

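Microarray Suite 5.0 and GeneSpring 6.0 are the analysis programs per the labels, which do not say where the values were exported. The deposited values are intensities, 1 linear signal per probe set, without detection calls, and whether they had been scaled is not stated per the labels. Their 2% trimmed means were 93.7, 58.1 and 46.8 at 0, 12 and 24 h. Of 12488 probe sets, 66 are controls. The remaining 12422 comprise 10833 with 1 gene, 396 with several genes and 1193 without a gene, and symbols were updated by gene identifier through a RefSeq gene table (GRCm38.p6), which matched 10817. Arrays were scaled to the geometric mean of the trimmed means, floored at 13.5 and taken to log2. The brightest probe set stands for a gene, and 2073 of 8251 genes have several. All 3 arrays exceeded the floor for 4682 genes and no array did for 1682. Since each time point has 1 array, nothing was tested, and precision is limited by the number of arrays. Python 3.11.15 with pandas 2.3.3 was used, and scaling, floor and fold rule were tested on simulated data. Folds were planted there in bright probe sets only, so signals near the floor were hardly covered. All probe sets of the members are given. From each list of more than 8 genes the text names, among those at least 2-fold different, the 4 with the largest ratios in a comparison, and genes next to a member by role. Further genes were named after their values were seen, where few were counted in a direction. The members and lists were chosen with earlier results of these data known. Alternatives covered scaling, floor, probe set, arrays used and the fold threshold.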

Additional observations from a re-analysis of the deposited data

How the results depend on the processing

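Of 83 member ratios recomputed under an alternative, 76 kept their side of 2-fold, 4 no longer reached it, 2 newly reached it and 1, of Arnt, lost it and changed sign. Settings that left no ratio are not among the 83. Arnt lost its ratios to 0 h with the 60th percentile floor, and that of 24 h over 0 h with the suffix filter. Some of the 76 could not change. Ahr has 1 probe set without a suffix, so the mean and the suffix filter returned its reported ratios. Cyp1b1 for 24 h over 0 h also changed sign, to -0.22 with the values as deposited from 0.79 as reported, short of 2-fold in both. Ahr kept its directions throughout, but with a floor at the 60th percentile its log2 ratio for 24 h over 0 h was a bound of -0.49. Arnt for 12 h over 0 h was -0.50 with the mean over probe sets and 0.32, the opposite direction, without probe sets whose suffix marks cross-hybridization, and for 24 h over 0 h it was -0.66 with the mean. Cyp1b1 for 24 h over 12 h was -0.77 with the mean, which includes a set far under the floor. Cyp1a1 for 24 h over 0 h was 1.56 with a floor at the 20th percentile and 1.41 with none. Accordingly, the count higher at 12 h than at 0 h was 3 in place of 2 with a floor at the 20th percentile, through Cyp1a1, and the count lower at 12 h than at 0 h was 0 in place of 1 with the 60th percentile floor, the mean, the suffix filter or a 3-fold rule. The count lower at 24 h than at 12 h was 1 in place of 2 with the mean or a 3-fold rule. The count lower at 24 h than at 0 h was 0 in place of 2 with the 60th percentile floor and 1 with the mean, the suffix filter or a 3-fold rule, and the count higher there was 1 in place of 0 with a floor at the 20th percentile or none. Where both arrays were at the floor, other settings gave Cyp1a1 a log2 ratio of 0.14 to 1.12 for 12 h over 0 h and Arnt -0.32 to 0.63 for 24 h over 12 h. Over all genes, higher and lower counts for 12 h over 0 h were 1128 and 1739 as reported, 604 and 2958 as deposited, 1660 and 1179 after median centring and 1395 and 1336 after quantile normalization. For 24 h over 12 h they were 1157 and 737, 697 and 1075, 809 and 1104, and 891 and 857 in the same order, and for 24 h over 0 h 925 and 1130, 302 and 3216, 1103 and 891, and 1038 and 993. Signals near the floor, as for Arnt, Cyp1a1 and Ahr at 24 h, limit what these arrays can show. No paired analysis was possible because each time point has 1 array.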

Other observations

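Cytochrome P450 genes were mostly dark. Of 38 measured, Cyp1a1 and Cyp1b1 included, 21 were at or under the floor on both arrays of 12 h against 0 h. Cyp1a1 was among these 21, and over all genes 1872 of 8251 were at or under it on both. In that comparison 3 of 17 were at least 2-fold higher and 1 lower, beside 17.7% and 27.3% of all genes, with a median log2 ratio of 0.20. Besides Cyp1b1 the higher ones were Cyp7b1, an oxysterol hydroxylase (4.78-fold), and Cyp4v3, a fatty acid hydroxylase (3.23-fold), and the lower one was Cyp26a1, which degrades retinoic acid (at least 2.48-fold). Cyp7b1 had signals of 30.8, 147 and 332 at 0, 12 and 24 h by its brighter probe set, while the other set gave log2 ratios of 0.76 for 12 h against 0 h and -0.26 for 24 h against 12 h. Cyp4v3 had 14.3, 46.2 and 15.0, and so was highest at 12 h, as were Ahr and Cyp1b1. For 24 h against 12 h, 4 of 18 were higher and 2 lower, beside 18.8% and 12.0% of all genes, with a median of 0.19. The lower ones were Cyp4v3 (3.07-fold) and Cyp1b1. Cyp2f2, a lung enzyme, was 3.06-fold and Cyp2b10, a liver enzyme, at least 2.63-fold higher at 24 h relative to 12 h. At 24 h against 0 h, 2 of 17 were higher, Cyp7b1 (10.8-fold) and Cyp2f2 (3.54-fold), and 1 lower, Cyp26a1 (at least 2.48-fold), beside 14.5% and 17.7% of all genes, with a median of 0.23.

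Of 8 measured coregulators that act with Ahr or Arnt, 2 were at least 2-fold higher and 4 lower at 12 h relative to 0 h, beside 17.7% and 27.3% of all genes, with a median log2 ratio of -0.86. Smarca4, the motor of a chromatin remodelling complex, had signals of 376, 48.5 and 120 at 0, 12 and 24 h, and the deacetylase Hdac1 159, 21.9 and 69.0. Both were lowest at 12 h, 7.74-fold and 7.23-fold lower than at 0 h. The other Smarca4 probe set was under the floor on every array and gave no ratio. Nrip1, a corepressor, was 2.23-fold and Ncoa3 at least 2.14-fold lower. The acetyltransferase Crebbp was 2.28-fold higher and the retinoblastoma gene Rb1 at least 2.27-fold higher at 12 h relative to 0 h, with Rb1 short of 2-fold by its other set. At 24 h, relative to 12 h, 2 of 6 were higher, Smarca4 and Hdac1, and 1 lower, Rb1, beside 18.8% and 12.0% of all genes, with a median of 0.47. With 24 h set against 0 h, 0 of 7 were higher and 3 lower, Smarca4, Hdac1 and Ncoa3, beside 14.5% and 17.7% of all genes, with a median of -0.75.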
